A study of Mus musculus with 22 samples.

Results

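The nuclear-encoded subunits of the mitochondrial respiratory chain were followed in RNA-seq of 3T3-L1 cells, a mouse preadipocyte line. The members were chosen by gene symbol from a list of 59 genes, and all 59 were found in both RNA-seq libraries, among 11355 genes listed in either. They comprise 35 subunits of complex I, 4 of complex II, 9 of complex III, 10 of complex IV and Cycs, which encodes cytochrome c. Ndufa4 was counted with complex IV, where its protein is known to sit, although its symbol names complex I. The series holds 22 libraries in 12 groups. Its title ties the 3′ end processing factor PCF11 to gene size and intronic polyadenylation. The other 20 libraries were made with 3′READS, which reads RNA 3′ ends. Their files list positions in mm9 without gene names, so they were not used here.

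Each RNA-seq group holds 1 library. The control is labelled untreated, and the other library is labelled siPcf11, an siRNA against Pcf11. Both carry the cell line label 3T3L1 and the strain label C57BL/6. No control siRNA and no time after transfection is named, so transfection and loss of Pcf11 cannot be told apart. With 1 library a group there is no replicate check, so no p-value is given, and every difference is one between these 2 libraries, not between conditions. The control held 8573956 reads in 11349 listed genes and the library labelled siPcf11 held 6992460 reads in 11192. No listed gene has fewer than 5 reads. Pcf11 itself had 939 counts in the control against 840 in the library labelled siPcf11, a log2 ratio of 0.17 (counting interval 0.03 to 0.30). Scaling by library totals alone lowers each ratio by 0.032, which is more than the lower bound of 0.030. The target gene was thus not lower, which goes against the label, and all directions are those of the library labelled siPcf11. Of 8 preadipocyte markers, 7 were listed in both libraries, while Cd34 was not listed. Their summed level was 13484 CPM (counts scaled to library size) in the control against 13429 CPM in the library labelled siPcf11. Col1a1, with 8201 and 7899 CPM, and Col3a1, with 4207 and 4300 CPM, held most of both sums. Among the 7 markers Dlk1, an inhibitor of adipocyte differentiation, had 567 and 708 CPM (log2 ratio 0.32, 0.26 to 0.38). Thy1 had 103 and 121 CPM (0.23, 0.09 to 0.37). The collagen gene Col1a1 had a log2 ratio of -0.05 (-0.07 to -0.04) and Col3a1, another, 0.03 (0.01 to 0.05). Pdgfra, Pdgfrb and Ly6a had -0.09, 0.02 and 0.04 with intervals across 0. Of 7 adipocyte genes, Pparg, Fabp4 and Lpl were listed, with summed levels of 245 and 233 CPM, while Adipoq, Plin1, Cidec and Cebpa were not. Fabp4, a fatty acid binding protein, had 97.5 and 79.8 CPM (log2 ratio -0.29, -0.45 to -0.13). Pparg and Lpl had log2 ratios of 0.22 and 0.02 with intervals across 0. The part of these marker differences in the ratios of the subunits was not tested. Of 15 markers of muscle, epithelial, white blood and endothelial cells, 3 were listed, each with fewer than 100 counts over both libraries.

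The respiratory chain of the inner mitochondrial membrane passes electrons to oxygen. Complex I takes them from NADH and complex II from succinate, ubiquinone carries them to complex III, and cytochrome c carries them on to complex IV, which reduces oxygen. Complexes I, III and IV pump protons, and ATP synthase uses the gradient they build. Complex II is encoded in the nucleus alone, whereas the other complexes also hold subunits encoded by mitochondrial DNA, and the nuclear subunits of each must be imported and assembled with these.

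Across all 59 members the levels in both libraries lay close together, while single subunits of the same complex differed in opposite directions. Levels are given as CPM, read counts scaled to 1 common library size, after TMM scaling, which matches the bulk of genes between libraries. Differences are log2 ratios of the library labelled siPcf11 over the control. The 95% counting interval beside a ratio is an exact binomial one. It covers counting error only and leaves out differences between cultures, and PCR copies of 1 molecule count as separate reads. CPM are not scaled to transcript length, so they compare a gene with itself and not with other genes. The summed level of the members was 5405 CPM in the control against 5667 CPM in the library labelled siPcf11, a log2 ratio of 0.07 (0.05 to 0.09). Summed over all genes with at least 100 counts, the log2 ratio was 0.03, and with at least 500 counts 0.04. These values, and not 0, are the reference for the summed levels of the complexes below. The median log2 ratio of the members was 0.06 and the mean -0.01, which differ in sign. The median was thus close to the 0.00 of the 9143 genes with at least 100 counts over both libraries. Of these genes, 50.4% lay above 0 and 49.6% below, and of the 59 members 35 lay above and 24 below. A level 1.2-fold higher or more was found for 6 members, against 14.8% of all genes, and one 1.2-fold lower or more for 10, against 16.9%. No member was 1.5-fold higher, a size that 2.15% of all genes reached, and 3 were 1.5-fold lower, or 2 of the 58 with at least 100 counts, against 3.47%. The counting interval lay above 0 for 20 members and below 0 for 13, against 19.5% and 19.7% of all genes. Such intervals narrow with depth, and among the 5443 genes with at least 500 counts the shares were 24.0% and 22.0%, where 20 and 10 of 51 members had such intervals. At that depth 5 of the 51 members and 11.2% of the genes were 1.2-fold lower, and none of the 51 was 1.5-fold lower. The members had a median of 1277 counts over both libraries and all genes a median of 660. Only Ndufs5, with 62 counts, fell short of 100 counts.

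**Figure D1:**
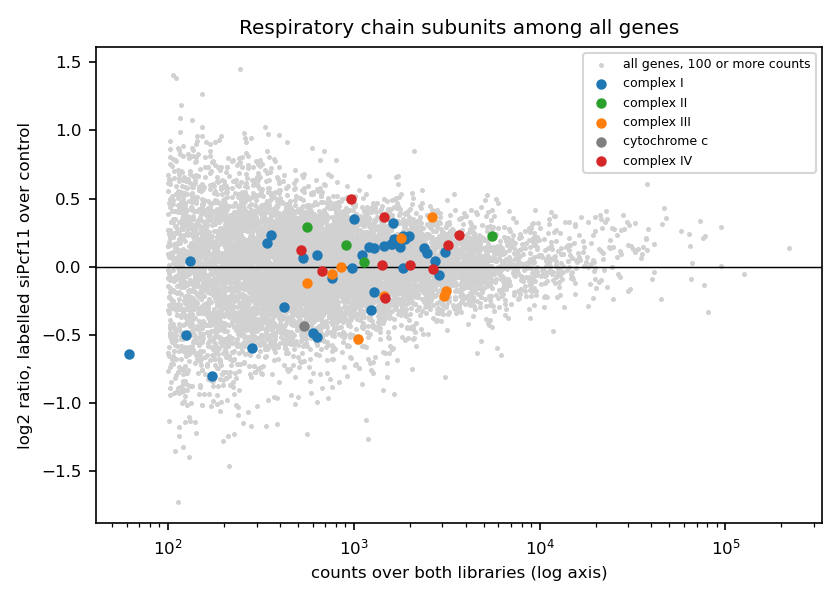
Log2 ratio of the library labelled siPcf11 over the control (vertical) against counts over both libraries (horizontal, log axis), with 1 point a gene. Grey points are the 9143 genes with at least 100 counts and coloured points the 59 members, whose ratios run from -0.80 (Ndufa3) to 0.50 (Cox6a1), inside the range of all genes.

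Complex I, the entry point for NADH, had 23898 counts in the control against 20040 in the library labelled siPcf11 over its 35 members, or 2756 and 2898 CPM (log2 ratio 0.07, 0.05 to 0.10). Summed over all genes with at least 100 counts, the log2 ratio was 0.03. The median log2 ratio of the complex was 0.09 and its mean -0.03, as 22 members lay modestly above 0 and fewer lay further below it. Of the 35, 2 passed 1.2-fold upwards and 8 downwards, against 14.8% and 16.9% of all genes. The counting interval lay above 0 for 12 members, below 0 for 7 and across 0 for 16. With TMM, 19.5% of all genes had one above 0 and 19.7% one below. Scaled by library totals alone, which lowers the ratios of all genes alike, only 6 members of the complex had an interval above 0. Those of Ndufv1, Ndufv2, Ndufa1, Ndufa9, Ndufb7 and Ndufs6 then reached across it. The SD of the ratios within the complex was 0.30, while counting error alone would give 0.13. Over all genes with at least 100 counts these values were 0.30 and 0.14, so a spread beyond counting error was not particular to the complex.

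The core subunits of complex I hold its flavin and iron-sulfur clusters and are conserved from bacteria to mammals. Ndufv1, which binds NADH and the flavin, had 1657 counts in the control against 1424 in the library labelled siPcf11, or 191 and 206 CPM (log2 ratio 0.11). Its partner Ndufv2 had 851 and 762 counts (98.1 and 110 CPM, log2 ratio 0.17, 0.02 to 0.31). Both intervals lay just above 0, and with library totals both reached across it. Ndufs1, the largest iron-sulfur subunit of the matrix arm, had nearly the same level in both, 117.9 and 117.4 CPM. Of the subunits nearer to ubiquinone, Ndufs8 had 755 and 483 counts, or 87.1 and 69.9 CPM (log2 ratio -0.32, -0.49 to -0.15). Ndufs3 had 255 and 166 counts (29.4 and 24.0 CPM, log2 ratio -0.29, -0.58 to -0.01). These were the core members with a lower level in the library labelled siPcf11 beyond counting error, while Ndufs7, which also lies there, had 33.3 and 34.9 CPM with an interval across 0. Of 6 core members, 3 lay above 0, and the median was 0.03.

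The Ndufa group of accessory subunits held the lowest member of the complex, Ndufa3, beside 8 members above 0. Ndufa3, a small membrane subunit, had 118 counts in the control against 54 in the library labelled siPcf11, or 13.6 and 7.81 CPM (log2 ratio -0.80, -1.29 to -0.32). This is 0.574 of the control level, and 1.19% of all genes had a lower ratio. Ndufa11, another membrane arm subunit, had 186 and 98 counts (21.5 and 14.2 CPM, log2 ratio -0.60, -0.97 to -0.24). Ndufa6 had 407 and 227 counts (46.9 and 32.8 CPM, log2 ratio -0.52, -0.76 to -0.28). Ndufa6 belongs to the LYR proteins and binds the mitochondrial acyl carrier protein, which is encoded by Ndufab1. That gene had 80 and 45 counts (9.23 and 6.51 CPM, log2 ratio -0.50), with an interval of -1.06 to 0.04 that reached across 0. Ndufb9, the other LYR subunit of complex I, had 1340 and 1148 counts and a log2 ratio of 0.10 with an interval of -0.01 to 0.22.

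The remaining Ndufa members lay near or above 0. Ndufa5 had 1022 and 955 counts (118 and 138 CPM, log2 ratio 0.23, 0.10 to 0.36) and Ndufa7 had 946 and 883 (109 and 128 CPM, 0.23, 0.09 to 0.36). Ndufa8 and Ndufa10 both had a log2 ratio of 0.20, and Ndufa1 and Ndufa9 had 0.15 and 0.13, all with intervals above 0, which those of Ndufa1 and Ndufa9 lost with library totals. Ndufa13, also known as GRIM-19, and Ndufa12 had 0.13 and 0.17 with intervals across 0, and Ndufa2 had -0.08. Of 13 members, 8 lay above 0 and the median was 0.13, yet the mean was -0.08 because of the 4 low ones.

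The Ndufb subunits sit in the distal membrane arm, next to the proton pumping subunits encoded by mitochondrial DNA. Ndufb5 had 495 counts in the control against 502 in the shallower library labelled siPcf11, or 57.1 and 72.6 CPM (log2 ratio 0.35, 0.16 to 0.53). Ndufb6 had 812 and 807 counts (93.6 and 117 CPM, log2 ratio 0.32, 0.18 to 0.46). These were the 2 members of complex I at least 1.2-fold higher. Ndufb7 followed with 0.17 (0.02 to 0.31), or 0.14 with an interval across 0 by library totals, and Ndufb2 was lower, with 759 and 532 counts and a log2 ratio of -0.19 (-0.35 to -0.02). The other 6, Ndufb3, Ndufb4, Ndufb8, Ndufb9, Ndufb10 and Ndufb11, ran from -0.01 to 0.15 with intervals across 0. With an SD of 0.15 against 0.11 from counting error, the Ndufb ratios were the most alike of the 4 groups within complex I.

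Of the 6 other accessory subunits, Ndufc1 had 387 and 220 counts, or 44.6 and 31.8 CPM (log2 ratio -0.49, -0.73 to -0.25). Ndufc2, its neighbour in the membrane arm, had 185 and 173 counts and a log2 ratio of 0.23 with an interval of -0.08 to 0.54. The 2 intervals did not overlap. Ndufs5, on the side of the intermembrane space, had only 41 and 21 counts, and its log2 ratio of -0.64 came with an interval of -1.47 to 0.15. Ndufs6 had 771 and 683 counts (log2 ratio 0.15), Ndufs4 had 602 and 509 (0.08) and Ndufv3 had 1633 and 1246 (-0.06). The 6 members of complex I with log2 ratios of -0.49 or lower had 62 to 634 counts over both libraries. They thus lay in the shallower part of the complex, whose median was 1238 counts, and the part of depth in their ratios was not tested.

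**Figure D2:**
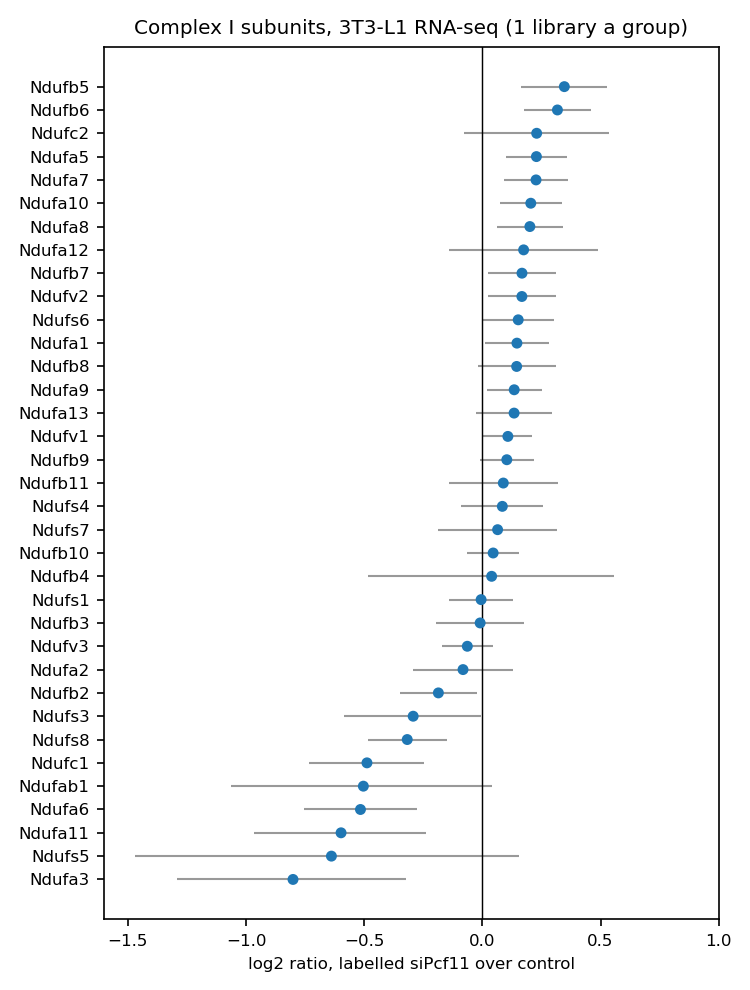
Log2 ratio of the library labelled siPcf11 over the control for the 35 subunits of complex I, sorted, with 1 library a group. Points are ratios after TMM scaling and bars are 95% counting intervals; the 2 highest are Ndufb5 and Ndufb6 and the lowest is Ndufa3, and 16 bars cross 0.

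Complex II, succinate dehydrogenase, is also an enzyme of the tricarboxylic acid (TCA) cycle. All 4 members lay above 0 with TMM, against 50.4% of all genes. Sdhb lay so close to 0 that 3 did with library totals, which lower all ratios alike. Sdha, the flavoprotein subunit that oxidises succinate, had 2876 counts in the control against 2682 in the library labelled siPcf11, or 332 and 388 CPM (log2 ratio 0.23, 0.15 to 0.30). Sdhd, a membrane anchor, had 285 and 278 counts (32.9 and 40.2 CPM, log2 ratio 0.29, 0.05 to 0.53) and was 1.22-fold higher. Sdhc, the other anchor, had 482 and 429 counts (log2 ratio 0.16) and Sdhb, the iron-sulfur subunit, had 623 and 508 (log2 ratio 0.03), with intervals across 0. The summed level was 492 CPM in the control against 564 CPM in the library labelled siPcf11 (log2 ratio 0.20, 0.13 to 0.26), and Sdha held most of these counts. The median log2 ratio was 0.19.

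In complex III, which hands electrons from ubiquinol to cytochrome c, 2 members lay above 0 and 7 below, against 50.4% and 49.6% of all genes. The 2 were the large core proteins on the matrix side. Uqcrc1 had 1307 counts in the control against 1339 in the library labelled siPcf11, or 151 and 194 CPM (log2 ratio 0.36, 0.25 to 0.47). Uqcrc2 had 935 and 863 counts (108 and 125 CPM, log2 ratio 0.21, 0.08 to 0.35). The redox subunits lay lower, with Cyc1, cytochrome c1, at 862 and 594 counts, or 99.4 and 85.9 CPM (log2 ratio -0.21, -0.36 to -0.06). Uqcrfs1, the Rieske iron-sulfur protein, had 321 and 236 counts and a log2 ratio of -0.12 with an interval of -0.37 to 0.13.

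Among the small subunits of complex III, Uqcr10 had 682 and 376 counts, or 78.7 and 54.4 CPM (log2 ratio -0.53, -0.72 to -0.35). It was the only member of the complex at least 1.2-fold lower. Uqcrq had 1821 and 1254 counts (210 and 181 CPM, log2 ratio -0.21, -0.32 to -0.11). Uqcrb had 1828 and 1292 counts (211 and 187 CPM, log2 ratio -0.17, -0.28 to -0.07). Both are well counted, and both were lower in the library labelled siPcf11 beyond counting error. Uqcrh, the acidic hinge protein that helps bind cytochrome c, and Uqcr11 had 48.0 and 55.0 CPM in the library labelled siPcf11 against 49.7 and 55.1 in the control, with intervals across 0. The intervals of Uqcrc1 and Uqcrc2 overlapped with none of those of Uqcr10, Uqcrq, Uqcrb and Cyc1. These are the members of the complex with intervals off 0, and their ratios differed by more than counting error. The SD of the ratios within the complex was 0.26, while counting error alone would give 0.08. Over all genes with at least 500 counts these values were 0.22 and 0.09, so such a spread was not particular to complex III. The summed level was 999 CPM and 964 CPM (log2 ratio -0.05, -0.10 to -0.01), and the median log2 ratio was -0.12. The range of complex III, from -0.53 to 0.36, contains that of complex II, from 0.03 to 0.29, and the difference between complexes was not tested.

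Cycs, the mobile carrier between complexes III and IV that also acts in apoptosis, had 340 counts in the control against 201 in the library labelled siPcf11, or 39.2 and 29.1 CPM (log2 ratio -0.43, -0.69 to -0.18). Of all genes, 7.68% had a lower ratio. Cycs and Cyc1, between which an electron is passed, were both lower beyond counting error. Cyct, the testis form of cytochrome c, was not listed in either library. Cycs has 3 pseudogenes named after it in RefSeq, and how reads shared with such copies were counted is not given in the sources used here.

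Complex IV, cytochrome c oxidase, had 7 of its 10 members above 0, against 50.4% of all genes. With library totals 5 did, as Cox6c and Cox7b lay at 0.01 and then at -0.02. That scaling lowers all ratios alike, and the 50.4% was taken with TMM. Cox6a1 had 453 counts in the control against 510 in the library labelled siPcf11, or 52.2 and 73.8 CPM (log2 ratio 0.50, 0.31 to 0.68). At 1.41-fold it was the highest of all 59 members, and 96.5% of all genes had a lower ratio. Cox8a, a small membrane subunit, had 714 and 732 counts (82.3 and 106 CPM, log2 ratio 0.36, 0.21 to 0.51). Ndufa4 had 1905 and 1787 counts (220 and 258 CPM, log2 ratio 0.23, 0.14 to 0.33), and Cox4i1, the subunit through which ATP is known to act on the enzyme, had 1706 and 1519 (197 and 220 CPM, 0.16, 0.06 to 0.26). Cox7c was the 1 member with an interval below 0, with 880 and 598 counts, or 101 and 86.5 CPM (log2 ratio -0.23, -0.38 to -0.08). Cox5a, Cox5b, Cox6c, Cox7a2 and Cox7b ran from -0.03 to 0.12 with intervals across 0. The summed level was 1118 CPM and 1212 CPM (log2 ratio 0.12, 0.07 to 0.16), and the median log2 ratio was 0.07, or 0.03 with library totals. With Ndufa4 left to complex I, the median of complex IV was 0.01.

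Several subunits of complex IV have forms particular to muscle, lung or testis. In these libraries Cox4i2, Cox6a2, Cox7b2, Cox8b, Cox8c and Ndufa4l2 were not listed, and Cox7a1, the heart and muscle form, had 6 and 5 counts. Its counterpart Cox7a2 had 1493 and 1177 counts. Cox7a2l, which takes part in joining complexes III and IV, had 86 and 62 counts (log2 ratio -0.15, -0.64 to 0.34). The ubiquitous forms thus held nearly all counts of each such pair in both libraries.

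**Figure D3:**
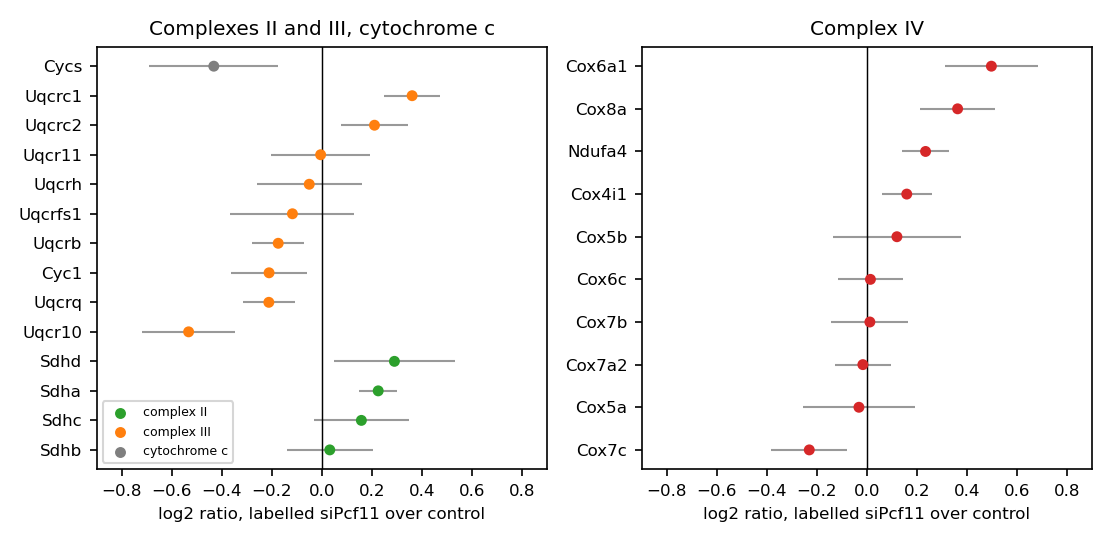
Log2 ratio of the library labelled siPcf11 over the control for complexes II and III and cytochrome c (left) and complex IV (right), with 1 library a group. Points are ratios after TMM scaling and bars are 95% counting intervals; all 4 members of complex II lie above 0 (3 with library totals), and in complex III only Uqcrc1 and Uqcrc2 do.

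Related genes were described by lists from the same pathway, each beside the 50.4% of all genes above 0. Of 14 counted subunits of ATP synthase, 10 lay above 0, with a median of 0.14. The interval lay above 0 for 8 of the 14 and below 0 for 2, against 19.5% and 19.7% of all genes. Among genes with at least 500 counts these shares were 24.0% and 22.0%. Atp5d, a subunit of the central stalk, had 624 and 680 counts (log2 ratio 0.45, 0.29 to 0.61), and Atp5j and Atp5f1, of the peripheral stalk, had 0.34 and 0.28. Atp5k had 1235 and 773 counts (log2 ratio -0.35, -0.48 to -0.22) and Atp5h, also of the peripheral stalk, had 667 and 450 (-0.24, -0.42 to -0.07). Both directions were thus seen within this complex too. They were also mixed among all genes, of which 50.4% lay above 0 and 49.6% below. Of 13 enzymes and subunits of the TCA cycle, 10 lay above 0, with a median of 0.21. Cs, citrate synthase, and Idh3a both had a log2 ratio of 0.29, while Idh3g, another subunit of the same dehydrogenase, had 400 and 245 counts and a ratio of -0.38 (-0.62 to -0.15).

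Assembly factors, which build the complexes but are not part of them, were less deeply counted and spread more widely. Of 10 counted factors of complex I, 6 lay above 0, with a median of 0.02 and a mean of -0.03. Timmdc1, which acts in building the membrane arm, had 439 and 241 counts (log2 ratio -0.54, -0.77 to -0.31), and Ndufaf4 had 107 and 60 (-0.51, -0.99 to -0.04). Ndufaf5 had -0.33, Foxred1 0.36 and Ndufaf1 0.46, with intervals across 0. For complex II, Sdhaf2 alone passed 100 counts, with 380 and 314 (log2 ratio 0.05).

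For complex III, 2 of 5 counted factors lay above 0. Bcs1l, which inserts the Rieske protein, had 94 and 46 counts (log2 ratio -0.70, -1.25 to -0.18) and Uqcc3 had 187 and 114 (-0.39, -0.74 to -0.04). Ttc19 had -0.35 with an interval across 0, and Uqcc1 had 154 and 168 counts (0.45, 0.13 to 0.78). Of 16 counted factors of complex IV, 10 lay above 0, with a median of 0.14 and a mean of -0.02. Cox20, a chaperone of the mitochondrially encoded subunit COX2, had 263 and 108 counts (log2 ratio -0.96, -1.29 to -0.63). Pet100 had 169 and 72 counts (-0.90, -1.32 to -0.50) and the copper chaperone Cox17 had 189 and 105 (-0.52, -0.88 to -0.17). Coa7 had 85 and 50 counts (-0.44), with an interval across 0. Cox18 had 107 and 129 counts (0.60, 0.22 to 0.98), Cox15, which acts in heme A synthesis, had 0.30 (0.05 to 0.55), and Coa5 had 0.35 (0.01 to 0.68). Cox11, Cox14 and Taco1 had 0.34, 0.30 and 0.31 with intervals across 0.

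Among transcription factors and coactivators of mitochondrial biogenesis, 6 of 10 counted genes lay above 0, with a median of 0.05. Nrf1, known as an activator of respiratory chain genes, had 264 and 211 counts and a log2 ratio of 0.00, and Gabpa had 1045 and 894 counts (0.10), both with intervals across 0. Pprc1, a coactivator of the PGC-1 family, had 1407 and 1408 counts (0.33, 0.22 to 0.44), and Gabpb2 had 345 and 218 (-0.34, -0.59 to -0.09). Gabpb1 had 0.28 and Tfb2m 0.26, both with intervals across 0. The other PGC-1 coactivators were below 100 counts, with Ppargc1a at 59 and 21 counts (log2 ratio -1.16, -1.96 to -0.42) and Ppargc1b at 11 and 34 (1.95, 0.94 to 3.08). Their directions were opposite, on few reads. None of the 13 protein genes of mitochondrial DNA was listed in either library, so their balance with the nuclear subunits was not analysed here.

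**Figure D4:**
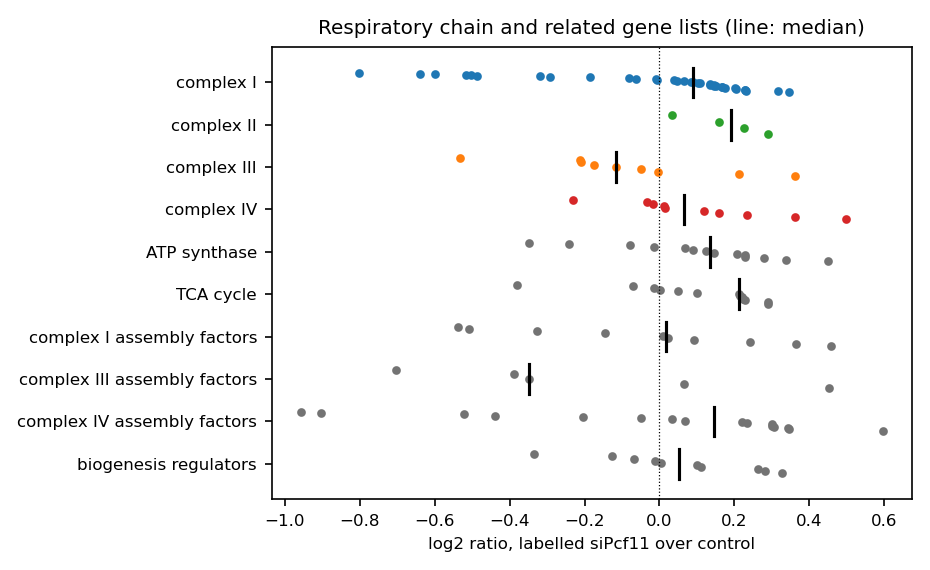
Log2 ratio of the library labelled siPcf11 over the control for the members of each complex and for related gene lists, with 1 point a gene (genes of the related lists have at least 100 counts) and a black line at each median. Cycs and the single counted assembly factor of complex II are not drawn; the medians drawn run from -0.35 (complex III assembly factors) to 0.21 (TCA cycle), and of the lists drawn only complex II holds no gene below 0, or 1 (Sdhb) with library totals.

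The promoters of the members were searched for motifs of factors known to act on respiratory chain genes. RefSeq (GRCm38.p6) gave a window of 250 bases before to 50 bases after the start for 49 of the 59 members. Both strands were searched. The NRF1 motif GCGCATGCG was in the windows of 6 of these 49, or 12.2%, and in 1.95% of the 27025 genes with a window. With its sixth base free, GCGCANGCG, which includes the first motif, it was in 14 members (28.6%) and in 7.03% of all genes. The motif CCGGAAG of ETS factors such as GABP was in 10 members (20.4%) and in 9.93% of all, and AANATGGCG of YY1 in 7 members (14.3%) and 2.76% of all. These shares describe letters in a window and not binding. A higher share in the members was not tested.

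The 6 members with the NRF1 motif are Cox6a1, Uqcrc1, Ndufa8, Uqcr11, Cycs and Ndufa11. Of these, 4 sequences are shown because their genes lie at opposite ends of the ratios, Cox6a1 at 0.50, Uqcrc1 at 0.36, Cycs at -0.43 and Ndufa11 at -0.60. Each is in GRCm38.p6, 5′ to 3′ on the strand of the gene. Capitals mark the motif, read on the opposite strand in Cycs.
Cox6a1, chr5:115349102-115349130, minus strand: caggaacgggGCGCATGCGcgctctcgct
Uqcrc1, chr9:108936668-108936696, plus strand: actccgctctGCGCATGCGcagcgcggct
Cycs, chr6:50566612-50566640, minus strand: catgctagctCGCATGCGCgcgcacaaac
Ndufa11, chr17:56717692-56717720, plus strand: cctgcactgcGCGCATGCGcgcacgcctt
The same letters thus stood in promoters of the highest member and of some of the lowest. The median log2 ratio was 0.10 for the 14 members with the motif of free base and 0.08 for the 35 with a window but without it. Where 1 more C was asked for after the motif, 11 members held it, with medians of 0.20 and 0.06 with and without it. The length of the motif, chosen after these values were seen, thus changes this difference.

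The 7 members with the YY1 motif are all of complex I, to which 35 of the 59 members belong. Of the 7, 5 sequences are shown because they hold the motif at nearly the same place, its first base 23 to 36 bases into the transcript. The motif is in capitals, and the strand is that of the gene. The length of this motif too was chosen after the values were seen.
Ndufa9, chr6:126849097-126849125, minus strand: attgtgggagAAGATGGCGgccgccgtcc
Ndufs4, chr13:114388045-114388069, minus strand: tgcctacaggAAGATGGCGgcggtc
Ndufs6, chr13:73328433-73328459, minus strand: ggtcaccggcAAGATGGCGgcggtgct
Ndufs7, chr10:80249463-80249491, plus strand: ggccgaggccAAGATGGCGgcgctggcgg
Ndufc1, chr3:51408915-51408943, minus strand: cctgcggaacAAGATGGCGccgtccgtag
All 5 carry the motif on the strand of the gene with the same letter, G, at its free base. The motif includes ATG, the letters of a start codon. Whether the shared letters and place are those of the start of translation was not tested. The first 4 had small log2 ratios of 0.13, 0.08, 0.15 and 0.06, and Ndufc1 had -0.49. The other members with the motif, Ndufa7 and Ndufb11, hold it before the start, and their ratios were 0.23 and 0.09.

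Reads of some members may not be told apart from those of other genes, which could not be checked from the counts. Of the 59, 8 overlap another protein-coding gene in the RefSeq annotation and 7 have pseudogenes named after them, and the files do not say whether strand was used. None of these pseudogenes was listed in either library. Ndufv2, with a log2 ratio of 0.17, overlaps Ankrd12, which had 1001 and 668 counts and a ratio of -0.26 (-0.40 to -0.11). Uqcrq and Uqcrc2 overlap Gdf9 and Pdzd9, which were not listed in either library. Without these 15 members, 28 of 44 lay above 0, 6 passed 1.2-fold upwards and 7 downwards. Of all genes these shares were 50.4%, 14.8% and 16.9%. The median of complex IV was then 0.16 over 7 members.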

How the data were processed

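For each RNA-seq library the authors deposited 1 file of gene symbols with whole-number read counts, not normalized. Per the submitters' processing notes, Cutadapt, Bowtie2, STAR and the build mm9 were used, in roles and versions not stated there. Which annotation and counting tool were used, and whether by strand, is not given in the sources used here. A gene listed in 1 library only was entered as 0 in the other; no member was.

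The library totals were scaled by TMM in edgeR 4.0.16 (R 4.3.3). Log2 ratios took no pseudocount, and 95% counting intervals were exact conditional binomial (Clopper-Pearson) ones. The background was genes with at least 100 counts over both libraries. A call was a ratio of 1.2-fold, or an interval on 1 side of 0. Promoters and neighbouring genes came from RefSeq tables of GRCm38.p6, all 59 symbols matching. Scripts used Python 3.11.15, pandas 2.3.3, scipy 1.17.1 and matplotlib 3.10.9.

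Named genes were, in each complex, members past 1.2-fold, with an interval off 0, or highest or lowest, and in each related list the genes past 1.2-fold with at least 100 counts, or else the highest and lowest. Others named were chosen for their known roles, in part after their values were seen. Members and lists were chosen with earlier results of these data known. Alternatives were library totals, DESeq2 1.42.0 size factors, a pseudocount, other count minimums and the complex of Ndufa4.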

Additional observations from a re-analysis of the deposited data

How the results depend on the processing

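With 1 library a group, no library could be left out. No paired analysis was possible because each RNA-seq group holds 1 library. Levels per coding length were not run, as no table of lengths was used here. With library totals the median of complex I was 0.056, that of complex IV was 0.034, and 32 members lay above 0. That scaling lowers the ratios of all genes alike. The median of all genes with at least 100 counts was -0.031 with it and 0.002 with TMM. The shares of all genes above 0 or with an interval on 1 side were taken with TMM only. With library totals an interval above 0 was found for 14 members in place of 20. All 6 lost were of complex I, where 6 in place of 12 remained. All 59 members kept their sign with DESeq2 size factors and with a pseudocount of 5, and 56 with library totals. Each ratio stayed inside its counting interval in all 3. With Ndufa4 in complex I the median of complex IV was 0.014 (9 members). Without members of uncertain counts, an alternative chosen after seeing the data, it was 0.16 (7 members), 1 of 6 members of complex III lay above 0, also by its interval, and 0 of complex IV had an interval below 0. Among genes with at least 500 counts, 11.2% were 1.2-fold lower, as were 5 of 51 members. Depth limits Ndufs5, Ndufab1 and Ndufb4, with 62, 125 and 131 counts.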

Other observations

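The annotation places another protein-coding gene within 500 bases of 26 members without overlap. One of these neighbours had the lowest log2 ratio of all 9359 genes in the members' range of counts. It is Timm8b, next to Sdhd, which encodes a small chaperone for import into the inner mitochondrial membrane. It had 81 counts in the control against 13 in the library labelled siPcf11 (9.34 and 1.88 CPM, log2 ratio -2.31, -3.28 to -1.46), while Sdhd had a ratio of 0.29 (0.05 to 0.53). Mrpl36, a mitochondrial ribosomal protein gene next to Ndufs6, had 127 and 73 counts (-0.47, -0.91 to -0.05) where Ndufs6 had 0.15. Mrpl47, next to Ndufb5, had 105 and 64 counts (-0.39, -0.86 to 0.07) where Ndufb5 had 0.35. Tfpt, next to the lowest member Ndufa3, had 170 and 171 counts (0.34, 0.02 to 0.65). These pairs were picked for their opposite directions after their values were seen. Of the 23 listed pairs of a member and such a neighbour, 13 had log2 ratios of the same sign and 10 of opposite sign. Among the former were Tecr (0.29) beside Ndufb7 (0.17) and Ccdc127 (0.21) beside Sdha (0.23).

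Between the libraries, 169 genes were listed in 1 only.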
